A study of Homo sapiens with 21 samples.

Results

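The genes described here encode the protein families that build and steer the spliceosome: SNRP, SNRNP, LSM, SRSF and HNRNP. They were taken by symbol, as every gene whose symbol begins with SNRP and a letter from A to G, SNRNP, LSM or SRSF and a digit, or HNRNP. The rule uses no measured value, although the families were chosen with earlier results of these data known. This gave 75 of the 26475 genes in the table: 12 SNRP, 7 SNRNP, 13 LSM, 12 SRSF and 31 HNRNP genes. Enough reads were present to test 67 of them, of which 65 are protein-coding. The other 8 are SNRPD2P2, SRSF12 and the HNRNP genes and pseudogenes HNRNPA1P33, HNRNPA3P1, HNRNPCL2, HNRNPCL3, HNRNPCL4 and HNRNPKP3.

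SNRP proteins of the Sm class form a ring around the small nuclear RNAs, and the other SNRP and the SNRNP proteins give each small nuclear ribonucleoprotein particle (snRNP) its identity. LSM proteins form related rings on the U6 RNA and on messenger RNAs that are to be decapped. SRSF proteins mostly promote, and HNRNP proteins often repress, the use of exons they bind near. Arginine methylation links these families to the compounds of the study: PRMT5 methylates the Sm proteins SNRPB, SNRPD1 and SNRPD3 and the ring protein LSM4, and type I arginine methyltransferases such as PRMT1 methylate many HNRNP proteins. RNA sequencing measures transcripts, so methylation and protein were not measured.

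All RNA came from the human melanoma line SK-MEL-147, sequenced in 7 groups of 3 libraries. One group was untreated. Cells of the other groups received JQ-1, which blocks the bromodomains of the BET proteins, TP-472, which blocks those of BRD9 and BRD7, the PRMT5 inhibitor GSK-591, MS023, which blocks type I arginine methyltransferases, GSK-484, which blocks the PADI4 arginine deiminase, or UNC0642, an inhibitor of the lysine methyltransferases encoded by EHMT1 and EHMT2. How long and at what dose cells were treated, and in which vehicle, is not given in the sources used here. All groups are of 1 cell line. Replicates are labelled biological, but no source says that they came from separate cultures. The p-values therefore cover only the spread among these libraries, and that spread may be technical.

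Summed expected counts were 20978182 to 78776788 per library, and the common coefficient of variation between replicates was 5.09%. Melanocyte and melanoma markers with counts numbered 12 or 13 of 13 in each group. Their summed level was 9411 to 10076 CPM (counts relative to the scaled library total) in untreated libraries and 15283 to 15484 CPM with JQ-1. Most of this sum is VIM, a gene of mesenchymal cells at large, at 7060 to 7700 CPM in untreated libraries and 12298 to 12500 CPM with JQ-1. SOX10, NGFR, AXL and MITF were also higher with JQ-1. In untreated and then JQ-1 libraries, SOX10 was at 349 to 371 and 589 to 603 CPM, and NGFR at 112 to 122 and 299 to 306 CPM. AXL was at 1836 to 1870 and 2038 to 2065 CPM, and MITF at 12.2 to 13.3 and 18.5 to 19.0 CPM. SOX9 was lower, at 36.7 to 39.9 CPM in untreated libraries and at most 21.7 CPM with JQ-1. The pigment cell genes PMEL, MLANA, TYRP1 and DCT were under 1 CPM in the untreated group, and TYR was at 0 with JQ-1, TP-472, GSK-591 and GSK-484. Markers of epithelial, immune and endothelial cells summed to 120 to 164 CPM over all libraries, of which CD68 alone gave 119 to 163 CPM. One feature set the untreated libraries apart. Their log2 CPM fell with transcript GC content by 0.372 to 0.454 per 10 percentage points, against 0.152 to 0.314 in the 18 treated libraries. Each comparison is therefore given from 2 fits of the edgeR quasi-likelihood test, without and with removal of this trend, and values with it removed are called GC-adjusted. A gene was called at a Benjamini-Hochberg adjusted p under 0.05 over all genes tested. Changes are given as log2 fold changes, some with their SE, and levels as CPM.

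Per kilobase of the longest coding transcript, the families spanned a wide range of levels in untreated cells. HNRNPA1, which binds exonic silencers, was highest at 484 CPM per kilobase, followed by the Sm gene SNRPD2 at 316, HNRNPA2B1 at 309 and SNRPB at 299. SNRPE stood at 204, HNRNPC at 179, SRSF9 at 137, SNRNP70 at 135 and SRSF1 at 93.0 CPM per kilobase. The minor spliceosome gene SNRNP25 was at 5.75, LSM11 at 5.33 and SRSF8 at 3.45 CPM per kilobase. The HNRNP genes together held 9073 CPM ± 50.4 in untreated cells (SD, n = 3) and the SNRNP genes 703 CPM ± 11.5.

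**Figure D1:**
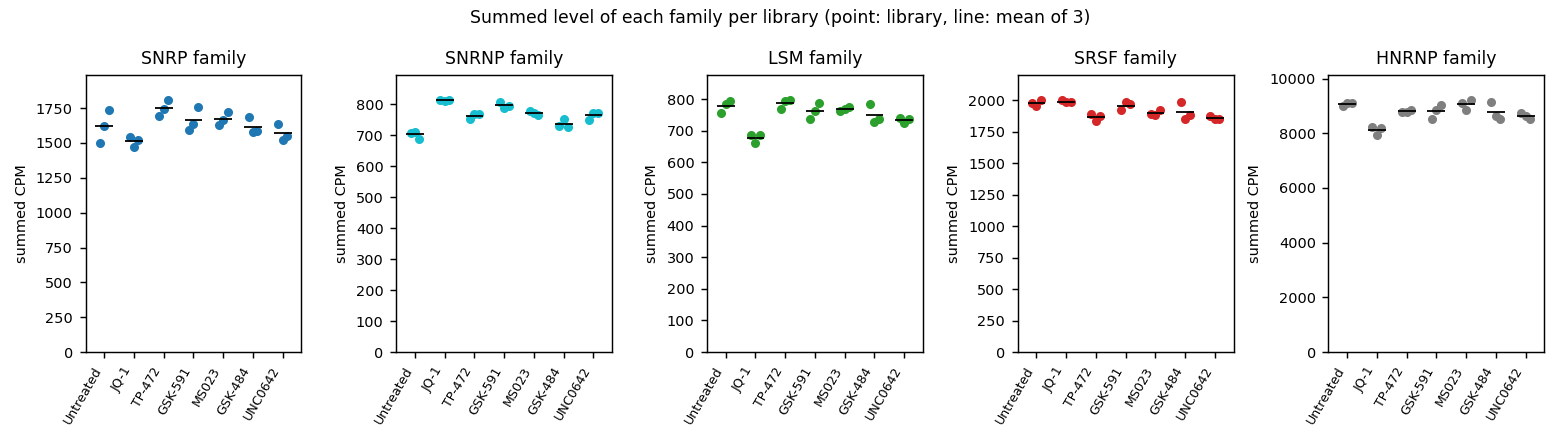
Summed CPM (vertical axis, from 0) of all members of each family in every library, by group (horizontal axis); points are libraries and lines the mean of 3. JQ-1 libraries lie below the untreated ones for LSM and HNRNP genes and above them for SNRNP genes. Every treated library lies above the untreated ones for SNRNP genes. Without SNRNP70, the SNRNP sums of each compound overlap those of untreated libraries.

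With JQ-1 the summed HNRNP level was 7941 to 8229 CPM, below the 9015 to 9106 CPM of untreated libraries. Within that sum, HNRNPA1 alone went from a mean of 1995 CPM without treatment to 1282 CPM with JQ-1. The summed LSM level was 660 to 685 CPM with JQ-1, below the 755 to 795 CPM without treatment. For the SNRP genes the sums overlapped, at 1473 to 1542 CPM with JQ-1 and 1496 to 1737 CPM without. The summed SNRNP level was higher in treated libraries: 690 to 710 CPM in untreated libraries, 812 to 815 CPM with JQ-1 and 727 to 753 CPM with GSK-484, the lowest of the treated groups. For JQ-1 and GSK-484 most of that difference was SNRNP70. Its mean was 216 CPM without treatment, 311 CPM with JQ-1 and 254 CPM with GSK-484. With UNC0642 the SNRNP sum was 751 to 773 CPM, and SNRNP70 had a mean of 245 CPM. The other SNRNP genes had a mean sum of 520 CPM there and 487 CPM without treatment. Without SNRNP70 the sums of each compound overlapped the 468 to 503 CPM of untreated libraries. They were 500 to 505 CPM with JQ-1, 469 to 500 CPM with GSK-484 and 502 to 534 CPM with UNC0642. In bulk RNA, fewer cells with a transcript and less of it per cell cannot be told apart.

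Promoters are shown of members that rose or fell with JQ-1 or were higher with MS023, because the groups below differ in which members rise and fall. The sequences are the 250 bases before the RefSeq start (assembly GRCh38.p14), from members whose window holds no exon of the gene in GENCODE 29. GENCODE starts SNRNP25, SRSF11 and HNRNPH3 further upstream, so that these 3 windows lie in introns of longer transcripts there. SNRNP25 rose and SNRNP40 fell with JQ-1, SRSF11 rose and SRSF8 fell with JQ-1, and HNRNPH3 and HNRNPL were higher with MS023. Capitals mark the CCAAT box, the SP site (GGGCGG) and the E-box (CACGTG), each read on either strand, and overlapping matches share their capitals.
SNRNP25 (chr16:53578-53827, plus strand): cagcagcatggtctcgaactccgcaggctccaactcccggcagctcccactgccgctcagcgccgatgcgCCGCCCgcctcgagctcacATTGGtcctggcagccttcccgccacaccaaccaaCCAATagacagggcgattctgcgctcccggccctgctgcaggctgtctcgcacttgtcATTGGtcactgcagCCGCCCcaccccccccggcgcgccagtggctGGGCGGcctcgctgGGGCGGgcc
SNRNP40 (chr1:31296789-31297038, minus strand): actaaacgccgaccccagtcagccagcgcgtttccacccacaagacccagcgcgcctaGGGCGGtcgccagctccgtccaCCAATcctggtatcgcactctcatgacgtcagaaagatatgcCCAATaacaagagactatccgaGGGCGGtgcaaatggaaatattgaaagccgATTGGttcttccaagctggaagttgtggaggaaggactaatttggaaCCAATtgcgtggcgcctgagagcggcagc
SRSF11 (chr1:70221130-70221379, plus strand): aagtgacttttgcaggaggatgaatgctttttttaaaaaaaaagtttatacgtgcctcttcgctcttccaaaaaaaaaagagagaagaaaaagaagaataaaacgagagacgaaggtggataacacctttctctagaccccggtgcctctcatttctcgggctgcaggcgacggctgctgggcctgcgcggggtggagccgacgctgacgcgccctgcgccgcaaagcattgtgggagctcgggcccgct
SRSF8 (chr11:95066627-95066876, plus strand): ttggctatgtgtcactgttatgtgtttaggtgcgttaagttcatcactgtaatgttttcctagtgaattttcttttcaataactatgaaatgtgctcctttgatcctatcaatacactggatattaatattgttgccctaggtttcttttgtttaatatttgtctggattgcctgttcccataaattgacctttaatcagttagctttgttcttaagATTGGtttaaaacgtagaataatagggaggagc
HNRNPH3 (chr10:68331443-68331692, plus strand): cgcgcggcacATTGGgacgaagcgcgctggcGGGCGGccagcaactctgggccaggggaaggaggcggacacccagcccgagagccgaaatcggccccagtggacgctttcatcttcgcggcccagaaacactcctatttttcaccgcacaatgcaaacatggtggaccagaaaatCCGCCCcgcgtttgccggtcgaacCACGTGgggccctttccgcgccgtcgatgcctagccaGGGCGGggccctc
HNRNPL (chr19:38852348-38852597, minus strand): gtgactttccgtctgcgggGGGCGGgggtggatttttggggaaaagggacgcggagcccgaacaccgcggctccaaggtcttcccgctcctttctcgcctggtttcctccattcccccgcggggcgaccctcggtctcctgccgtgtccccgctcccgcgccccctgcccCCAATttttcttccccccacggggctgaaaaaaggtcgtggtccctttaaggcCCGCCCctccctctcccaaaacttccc

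The search covered 4 motifs on both strands: the CCAAT box (CCAAT), the core of ETS factor sites (CCGGAAG), the site of SP factors (GGGCGG) and the E-box (CACGTG). The ETS core CCGGAAG was in 7 of 10 SNRP promoters (70%), against 16 of 61 members with a promoter (26.2%) and 14.4% of the 10975 promoters of genes tested. CCAAT was in 17 of 24 HNRNP promoters (70.8%), 50.8% of members and 34.9% of genes tested. GGGCGG was in 59.0% of members and 63.1% of genes tested, and CACGTG in 11.5% and 8.50%. Members lower with JQ-1 held CCGGAAG in 9 of 27 promoters and members higher with JQ-1 in 4 of 18. None of the 4 motifs lies in the SRSF11 window. The member counts above include windows that hold exonic bases. Among the 22 members whose window holds none, the ETS core was in 3 (13.6%). The 26.2% of all members was thus not seen in these windows, which were not split by family. The 14.4% of genes tested includes windows with exonic bases, so it is no like background for the 22. Of the other motifs, the first listed was in 54.5% of the 22, the SP site in 68.2% and the E-box in 22.7%. All of these are matches of letters, and binding was not measured.

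JQ-1 changed most members, as it did most genes tested, in both directions. Of 67 tested, 52 were called (77.6%), 19 higher and 33 lower, while 73.3% of all genes tested were called (35.7% higher and 37.6% lower). With GC adjustment 23 were higher and 24 lower (71.2% in all), against 43.2% and 32.2% of all genes (75.4% in all). With library totals in place of TMM scaling 11 were higher and 41 lower. That scaling moved the median log2 fold change of all genes from -0.0064 to -0.15. Under both fits 19 rose and 24 fell (66% of all genes were called in both). The median log2 fold change was -0.11 over members, -0.26 over SNRP, 0.11 over SNRNP, -0.30 over LSM, -0.03 over SRSF and -0.05 over HNRNP genes. With GC adjustment the medians were -0.0049 over members, -0.11 over SNRP, 0.17 over SNRNP, -0.09 over LSM, 0.01 over SRSF and 0.05 over HNRNP genes, beside 0.09 over all genes.

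**Figure D2:**
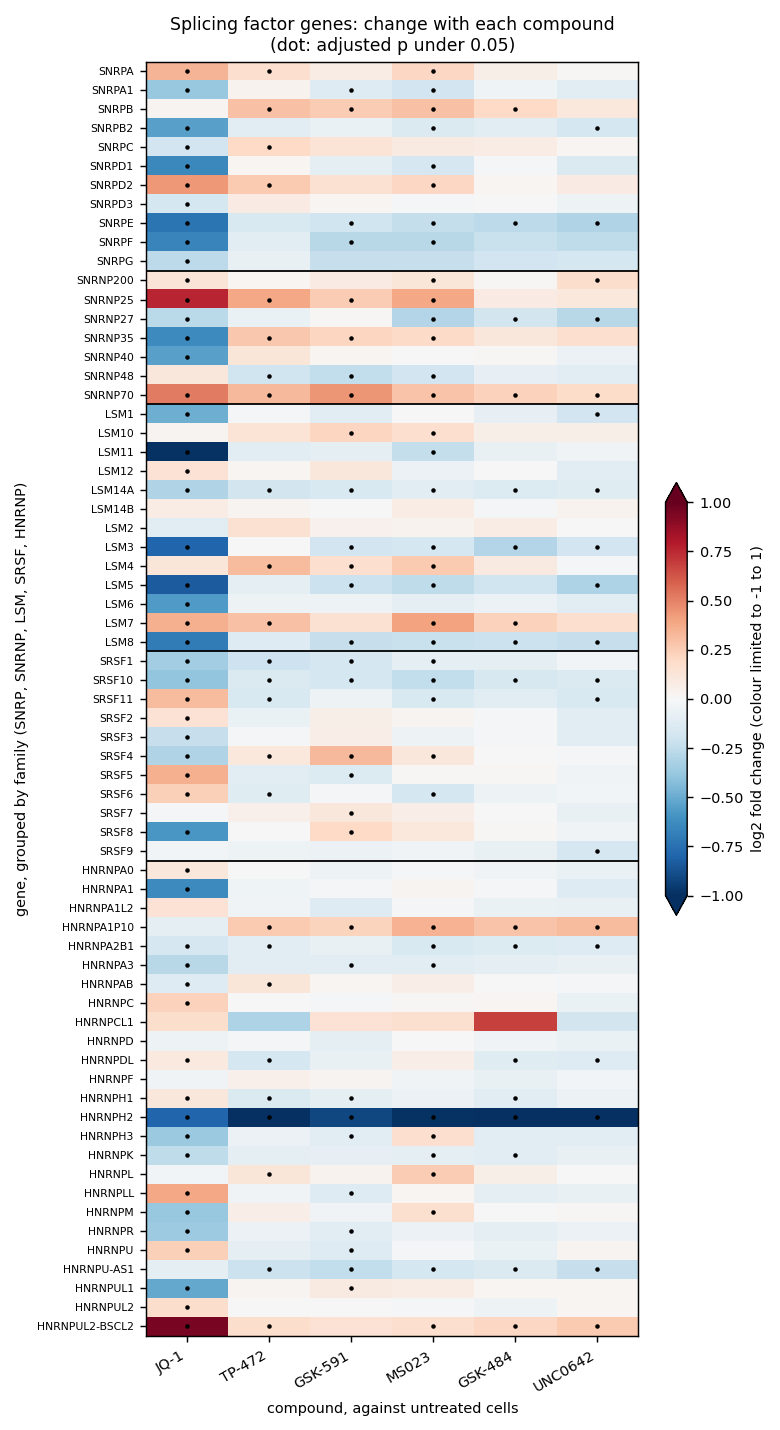
Colour gives the log2 fold change against untreated cells (limited to -1 to 1) for the 67 tested genes (vertical axis, by family) and 6 compounds (horizontal axis); dots mark an edgeR adjusted p under 0.05. The JQ-1 column has the deepest colours, with 33 genes lower and 19 higher, and SNRNP70 is higher with all 6 compounds.

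Among the 7 genes of the Sm ring, 5 fell with JQ-1, 1 rose and 1 was not called. SNRPE (chr1:203861603-203870550, plus strand, hg38) was at 180, 189 and 206 CPM in untreated libraries and at 119, 109 and 119 CPM with JQ-1. Every JQ-1 library was below every untreated one, a 1.66-fold lower level (log2 fold change -0.73, SE 0.076, adjusted p = 9e-09 by edgeR; GC-adjusted -0.50). SNRPD1 stood at 80.8, 85.3 and 91.7 CPM without treatment and 57.0, 52.5 and 55.7 CPM with JQ-1, and the groups did not overlap (-0.64, SE 0.061). SNRPF fell by 0.66 (GC-adjusted -0.33) and SNRPD3 by 0.18 (GC-adjusted -0.11). SNRPG had a log2 fold change of -0.26 (adjusted p = 0.018), but of -0.03 with GC adjustment (adjusted p = 0.768), and its call was also lost without JQ-1 replicate 2 or untreated replicate 3.

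SNRPD2 (chr19:45687454-45692569, minus strand), a ring neighbour of SNRPD1, rose. Its level was 256, 298 and 301 CPM in untreated libraries and 400, 362 and 392 CPM with JQ-1. All JQ-1 libraries were higher, by a mean of 1.35-fold (0.43, SE 0.064, adjusted p = 2.38e-06 by edgeR; GC-adjusted 0.46). SNRPB, which has the long arginine and glycine tail that PRMT5 methylates, was at 350, 357 and 350 CPM with JQ-1, inside the untreated range of 319 to 373 CPM (0.03, adjusted p = 0.662).

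Proteins specific to U1 and U2 also split. SNRNP70, the U1 protein that contacts SR proteins (chr19:49085419-49108605, plus strand), was at 206, 222 and 221 CPM without treatment and 315, 309 and 309 CPM with JQ-1. The groups were far apart (0.52, SE 0.038, adjusted p = 1.51e-11 by edgeR; GC-adjusted 0.37). SNRPA of U1 rose by 0.34, while SNRPC of U1 had -0.20 (adjusted p = 0.00253), not called with GC adjustment (-0.10, adjusted p = 0.0836). The U2 pair SNRPA1 and SNRPB2 both fell, by 0.38 and 0.54 (GC-adjusted -0.27 and -0.29).

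The U5 helicase gene SNRNP200 had 0.13 (adjusted p = 0.0135), a call lost without untreated replicate 3, and its sign turned with library totals (-0.02). SNRNP40, a U5 protein with WD repeats, fell by 0.54 (GC-adjusted -0.45). SNRNP27 of the tri-snRNP had -0.27, and -0.04 with GC adjustment, no longer called. Minor spliceosome genes moved apart: SNRNP25 (chr16:53010-57669, plus strand) went from 11.2, 10.5 and 11.1 CPM to 19.5, 17.7 and 18.7 CPM, a 1.70-fold rise without overlap, while SNRNP35 fell by 0.63. SNRNP48 was not called (0.11, adjusted p = 0.0776) but was with GC adjustment (0.36).

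**Figure D3:**
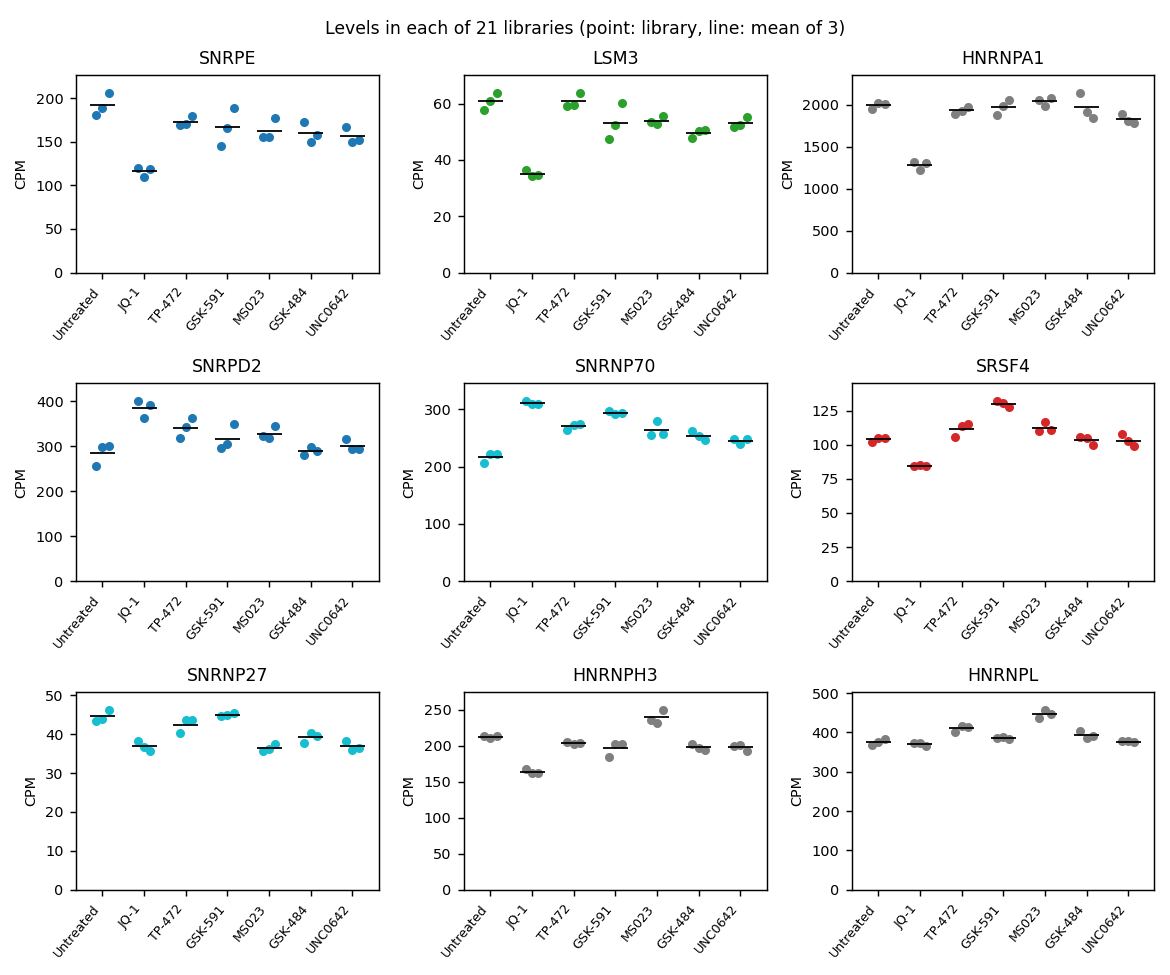
CPM (vertical axes, from 0) of 9 members in each of 21 libraries by group (horizontal axis); points are libraries and lines the mean of 3. SNRPE, LSM3 and HNRNPA1 are lowest with JQ-1, SRSF4 is highest with GSK-591, and HNRNPH3 and HNRNPL are highest with MS023.

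LSM genes gave the deepest falls with JQ-1. LSM11 (chr5:157743695-157760709, plus strand), part of the U7 snRNP that trims histone messages, was at 37.3, 34.9 and 33.0 CPM without treatment and 16.0, 18.6 and 18.6 CPM with JQ-1. That is 1.98-fold lower without overlap (-0.99, SE 0.061, adjusted p = 1.02e-12 by edgeR; GC-adjusted -0.83). Its U7 partner LSM10 was not called (0.03, adjusted p = 0.741).

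In the rings of LSM1 to LSM8, LSM3 went from 57.7, 60.9 and 63.9 CPM to 36.5, 34.2 and 34.7 CPM, and no library overlapped (chr3:14178358-14201119, plus strand; -0.79, SE 0.063). LSM5 fell by 0.83, LSM8, which marks the U6 ring, by 0.70, LSM6 by 0.56 and LSM1, which marks the decapping ring, by 0.49. All 5 were also called with GC adjustment, at -0.33 to -0.71. LSM7 rose by 0.35 (GC-adjusted 0.27), and LSM2 and LSM4 were not called (-0.11 and 0.13). LSM12 rose by 0.14 but was at -0.0014 with library totals, and LSM14A, of cytoplasmic processing bodies, fell by 0.30 (GC-adjusted -0.07).

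Among SRSF genes, 4 rose and 5 fell with JQ-1. SRSF11 was at 292, 279 and 300 CPM without treatment and 361, 366 and 361 CPM with JQ-1, all higher (0.32, adjusted p = 3.66e-08 by edgeR; GC-adjusted 0.56). SRSF5 rose by 0.36 and SRSF6 by 0.24, and SRSF2 had 0.15, at 0.00 and not called with library totals. SRSF1 (chr17:58003360-58007346, minus strand), the best known splicing enhancer protein of the family, went from 305, 293 and 272 CPM to 231, 228 and 226 CPM. Its groups did not overlap (-0.34, adjusted p = 2.76e-08; GC-adjusted -0.11). SRSF8 fell by 0.58, SRSF10 by 0.40 and SRSF4 by 0.30, while SRSF3 had -0.23 and was not called with GC adjustment (-0.00). SRSF7 and SRSF9 were not called.

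HNRNPA1 (chr12:54280193-54287088, plus strand), the most abundant member, was at 1952, 2023 and 2011 CPM in untreated libraries and at 1315, 1225 and 1305 CPM with JQ-1. It fell 1.56-fold without overlap (-0.64, SE 0.046, adjusted p = 1.4e-11 by edgeR; GC-adjusted -0.45). HNRNPUL1 went from 546, 562 and 549 CPM to 389, 385 and 390 CPM (-0.51; GC-adjusted -0.47). HNRNPM fell by 0.38 and HNRNPH3 by 0.37 (GC-adjusted -0.36 and -0.14). HNRNPR, HNRNPA3 and HNRNPK fell by 0.36, 0.27 and 0.25, but none of these calls held with GC adjustment, and HNRNPA2B1 turned from -0.17 to 0.07.

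HNRNP genes that rose with JQ-1 included HNRNPLL, a regulator of exon skipping first known in lymphocytes, by 0.38, the nuclear scaffold gene HNRNPU by 0.24 and HNRNPC, which binds uridine tracts, by 0.23. With GC adjustment these were larger, at 0.62, 0.46 and 0.46, and HNRNPC was not called with library totals (0.08). Against GSK-484 in place of untreated cells, 21 members were higher and 33 lower with JQ-1 (71.8% of all genes called), and with GC adjustment 28 were higher and 24 lower (75.1%).

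GSK-591, the PRMT5 inhibitor, gave 30 called members against untreated cells, 11 higher and 19 lower, against 32.9% of all genes (18.1% higher and 14.8% lower). With library totals the split was 4 higher and 28 lower. With GC adjustment 12 were called, 11 higher and 1 lower (12.4% of all genes, 7.68% higher and 4.71% lower), and under both fits 5 rose and 1 fell (8.49% of all genes). By family, 6 of 11 SRSF genes were higher with GC adjustment, as were 2 of 7 SNRNP, 1 of 13 LSM and 2 of 24 HNRNP genes. No SNRP gene was called there by edgeR, with 3 of 11 higher at an unadjusted p under 0.05. Without GC adjustment 3 of the 11 SRSF genes were higher and 3 lower, and 3 were higher under both fits.

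SRSF4, an SR protein with a long serine and arginine domain (chr1:29147743-29181987, minus strand), was at 132, 131 and 128 CPM with GSK-591 and 102, 105 and 105 CPM in untreated libraries. All GSK-591 libraries were higher, by 1.25-fold (0.32, SE 0.039, adjusted p = 9.37e-06 by edgeR; GC-adjusted 0.27, adjusted p = 4.48e-05). SNRNP70 was at 297, 293 and 294 CPM with GSK-591, above all untreated libraries (0.44, SE 0.038, adjusted p = 1.88e-07; GC-adjusted 0.20, adjusted p = 0.000119). SRSF7 rose by 0.11 and SRSF8 by 0.20 (GC-adjusted 0.24 and 0.28), HNRNPH1 fell by 0.10 (GC-adjusted -0.14), and HNRNPA1P10 completes the 6. HNRNPH1 turned to 0.094 when GC content came from its longest transcript of any type. The SRSF4 and SNRNP70 calls held without each replicate in turn. That of SRSF8 was lost without GSK-591 replicate 1 or untreated replicate 2, that of SRSF7 without GSK-591 replicate 2 or 3 or untreated replicate 1 or 2, and that of HNRNPH1 without GSK-591 replicate 1 or 3 or untreated replicate 1 or 2.

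MS023, the type I inhibitor, gave 37 called members, 16 higher and 21 lower (42.6% of all genes, 22% higher and 20.6% lower). Library totals gave 9 higher and 24 lower. With GC adjustment 16 were called, 15 higher and 1 lower (15.6% of all genes, 9.56% higher and 6.01% lower). Of 24 HNRNP genes, 11 were higher and 1 lower there. Without GC adjustment 5 of 25 HNRNP genes were higher and 5 lower, and 3 were higher under both fits. Over all members, 4 rose under both fits and none fell (10.2% of all genes). No SNRP gene was called by edgeR with GC adjustment, with 1 higher and 1 lower at an unadjusted p under 0.05, and no LSM gene, with 2 higher and 1 lower.

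HNRNPH3 (chr10:68331174-68343191, plus strand), a relative of HNRNPH1 that binds guanine runs, was at 236, 232 and 250 CPM with MS023 and at 214, 211 and 213 CPM without treatment. No library overlapped (0.17, SE 0.037, adjusted p = 0.000712 by edgeR; GC-adjusted 0.36, adjusted p = 1.06e-06). HNRNPL (chr19:38836388-38852347, minus strand), which binds CA repeats, was at 437, 458 and 448 CPM against 369, 377 and 383 CPM. Every MS023 library was higher, by 1.19-fold (0.25, SE 0.030, adjusted p = 1.6e-06; GC-adjusted 0.12, adjusted p = 0.00257). The other members higher under both fits were SNRNP35 (0.19, lost without MS023 replicate 3, untreated replicate 1 or untreated replicate 3) and HNRNPA1P10.

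SNRPB, SNRPD1, SNRPD3, LSM4, HNRNPA1 and SRSF1, whose proteins are known to carry methylated arginine, had log2 fold changes of -0.18 to 0.30 with either arginine methyltransferase inhibitor. SNRPB was at 426, 405 and 406 CPM with GSK-591 and 405, 454 and 412 CPM with MS023, above the untreated 319 to 373 CPM. Both changes were called (0.25, adjusted p = 0.0011, and 0.30, adjusted p = 0.000142, by edgeR) and neither was with GC adjustment (0.10 and 0.10). TP-472 libraries, at 415 to 437 CPM, and GSK-484 libraries, at 379 to 433 CPM, were also above untreated ones. SNRPD1 had -0.10 with GSK-591 (adjusted p = 0.232) and -0.17 with MS023 (adjusted p = 0.0233), or 0.04 and 0.01 with GC adjustment. The MS023 call was lost without MS023 replicate 1 or 2 or untreated replicate 3.

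SNRPD3 had 0.02 and -0.02 with the same inhibitors, and neither was called. LSM4 had 0.17 with GSK-591 and 0.26 with MS023, both called, but -0.01 and 0.03 with GC adjustment, and the GSK-591 call held only without untreated replicate 3 among the fits that left out 1 library. HNRNPA1, a major substrate of PRMT1, had -0.02 and 0.03, and with GC adjustment 0.07 and 0.16, the last of which was called (adjusted p = 0.031). SRSF1 had -0.18 and -0.10, both called, and -0.05 and 0.07 with GC adjustment, and the MS023 call was lost without MS023 replicate 2 or 3 or untreated replicate 1 or 2. Between GSK-591 and MS023 none of these 6 genes was called (log2 fold changes of -0.09 to 0.07), though SRSF1 was with GC adjustment (-0.12, adjusted p = 0.0276).

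The change of members followed transcript GC content in the comparisons with untreated cells. Spearman's rho across 66 members was 0.76 for MS023, 0.73 for TP-472 and GSK-484, 0.71 for UNC0642, 0.68 for GSK-591 and 0.41 for JQ-1. Between treated groups it was 0.55 for MS023 against GSK-484, 0.22 for GSK-591 against GSK-484 and -0.27 for GSK-591 against MS023. These members share their libraries, and the comparisons share the untreated ones. Members higher with MS023 had a median GC content of 56.2% and members lower 39.0%. What sets the trend was not tested.

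**Figure D4:**
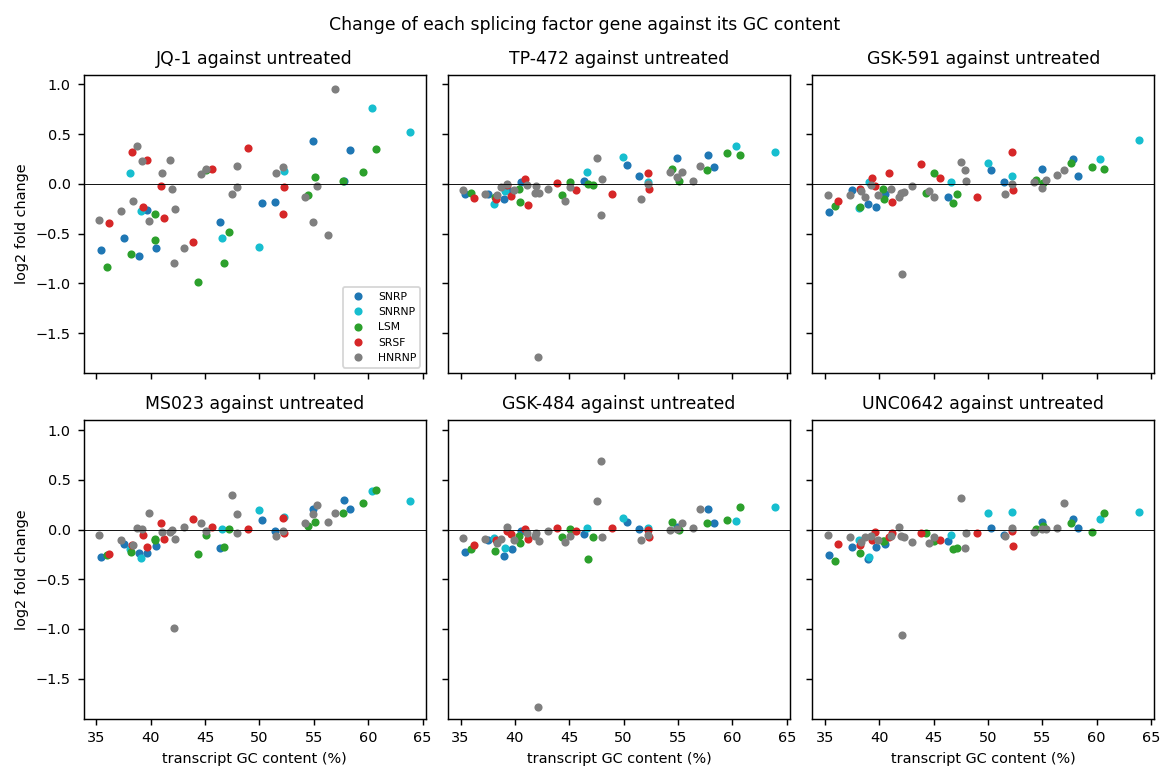
Log2 fold change against untreated cells (vertical axis) and GC content of the longest coding transcript in percent (horizontal axis) for 66 members and 6 compounds; each point is a gene coloured by family. Points rise from left to right in the 5 panels other than JQ-1 (rho 0.68 to 0.76), and the low point is HNRNPH2.

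Direct contrasts between treated groups leave out the untreated libraries. GSK-591 against MS023 called 10 members, 5 higher and 5 lower (9.89% of all genes, 5.43% higher and 4.46% lower; with library totals 4 members were higher and 7 lower), and 9 of them were called under both fits (7.81% of all genes). With GC adjustment 4 were higher and 9 lower (10.6%). The 4 lower HNRNP genes were HNRNPH3 (-0.28, adjusted p = 3.83e-05 by edgeR), HNRNPL (-0.21, adjusted p = 9.64e-05), HNRNPM (-0.19, adjusted p = 0.0174) and HNRNPDL (-0.14, adjusted p = 0.0221). HNRNPH3 was at 185, 202 and 203 CPM with GSK-591, below the MS023 libraries and below the untreated ones. HNRNPL was at 386, 388 and 385 CPM with GSK-591, between the untreated and the MS023 libraries. The HNRNPM call was lost without GSK-591 replicate 1, GSK-591 replicate 3 or MS023 replicate 1, and the HNRNPDL call without replicate 1 or 2 of GSK-591 or replicate 1 or 3 of MS023.

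Higher with GSK-591 than with MS023 were the tri-snRNP gene SNRNP27, SRSF4, SRSF6, SNRNP70 and LSM12, the last not called with GC adjustment or without MS023 replicate 1 or 2. SNRNP27 (chr2:69893560-69905575, plus strand) was at 44.8, 45.0 and 45.4 CPM with GSK-591 and at 35.8, 36.2 and 37.4 CPM with MS023. The groups did not overlap, and GSK-591 lay within the untreated range of 43.5 to 46.4 CPM (0.31, SE 0.045, adjusted p = 0.000181 by edgeR; GC-adjusted 0.26). SRSF4 was at 110, 117 and 111 CPM with MS023, under all GSK-591 libraries (0.21, adjusted p = 0.00175; GC-adjusted 0.21). SNRNP70 differed by 0.16 (adjusted p = 0.0107), a call lost without MS023 replicate 1 or MS023 replicate 3. SRSF5 was lower with GSK-591 (-0.14, adjusted p = 0.0483), a call lost without any 1 of the 6 libraries.

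Against GSK-484, another treated group, GSK-591 called 3 members, all higher (2.65% of all genes, 1.36% higher and 1.29% lower): SRSF4 (0.33, adjusted p = 0.000424 by edgeR), SNRNP70 (0.21, adjusted p = 0.00398) and SNRNP27 (0.20, adjusted p = 0.02). With library totals 2 were higher and 1 lower, and with GC adjustment 4 were higher (3.97% of all genes). The 3 calls were lost when only the 2 groups were fitted, and that of SNRNP27 also without any 1 of the GSK-591 libraries or GSK-484 replicate 1. MS023 against GSK-484 called 8, 6 higher and 2 lower (12.5% of all genes, 6.34% higher and 6.12% lower; with library totals 4 members were higher and 3 lower), and 5 were higher under both fits (5.81% of all genes). With GC adjustment 10 were higher and none lower (8.63%). The 5 were HNRNPH3 (0.27, adjusted p = 8.49e-05), HNRNPL (0.19, adjusted p = 0.000404), HNRNPDL (0.19, adjusted p = 0.00289), SNRNP25 (0.31, adjusted p = 0.00404) and SRSF4 (0.12, adjusted p = 0.0471), the SRSF4 call being lost in 5 of 6 fits with a library left out. Both contrasts share the GSK-484 libraries.

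**Figure D5:**
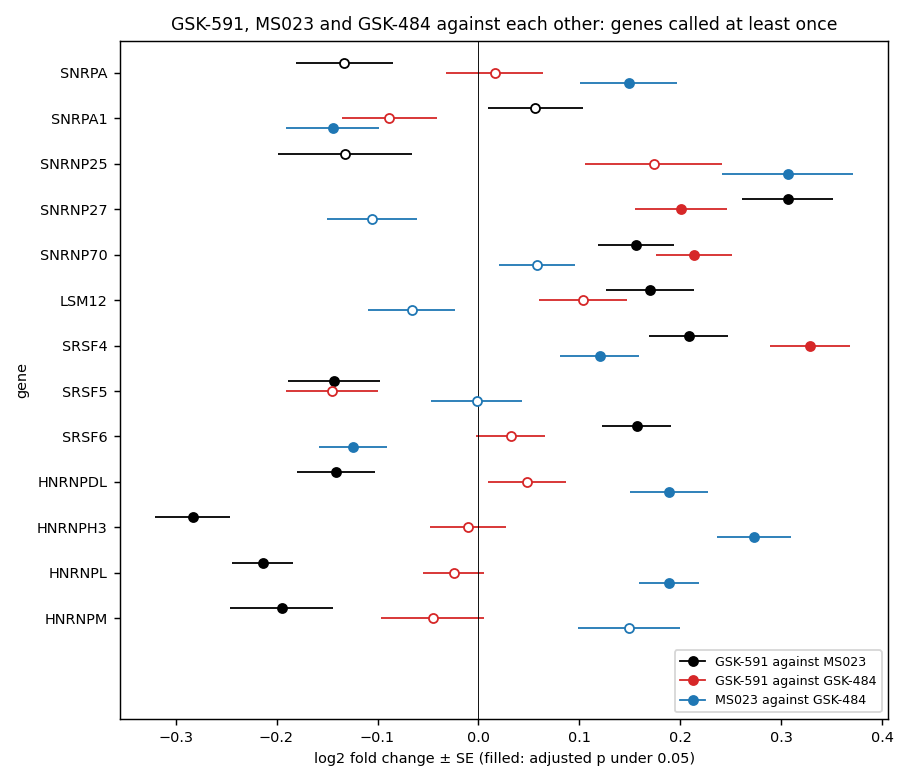
Log2 fold change ± SE (horizontal axis) of the 13 members (vertical axis) called in at least 1 of the 3 contrasts among GSK-591, MS023 and GSK-484; filled points have an edgeR adjusted p under 0.05. SRSF4 is higher with GSK-591 than with MS023 and GSK-484, and HNRNPH3 and HNRNPL are higher with MS023 than with GSK-591 and GSK-484.

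TP-472 gave 25 called members against untreated cells, 14 higher and 11 lower (31.8% of all genes, 17.3% higher and 14.5% lower). The balance turned with other settings, to 12 higher and 13 lower with RLE scaling, 13 and 13 with library totals, 11 and 17 without the filter on low counts and 9 and 14 with only the 2 groups. With GC adjustment 10 were called, 7 higher and 3 lower (10.6%), and 6 under both fits (7.27%). These 6 were SNRPB (0.29), SNRPC (0.20), SNRNP35 (0.27), HNRNPH1 (-0.15), HNRNPH2 (-1.74) and HNRNPA1P10 (0.26). The calls of SNRPC and HNRNPA1P10 were lost without untreated replicate 1, and that of HNRNPA1P10 also without TP-472 replicate 2. HNRNPH1 turned to 0.022 with GC content of the longest transcript of any type, and to 0.046 with GSK-484. Against GSK-484, 3 members were higher with TP-472 (2.06% of all genes), and 6 with GC adjustment (3.68%). GSK-484 gave 17, 5 higher and 12 lower (19.1% of all genes, 11.4% higher and 7.66% lower; with library totals 3 members were higher and 18 lower). With GC adjustment 3 were called (0.453% of all genes), the same 3 as under both fits, and all were lower (0.297% of all genes): LSM3 (-0.30, adjusted p = 0.00336 by edgeR), HNRNPH1 (-0.10) and HNRNPH2 (-1.79). LSM3 was at 47.8, 50.1 and 50.6 CPM with GSK-484, below every untreated library, but its call was lost when only the 2 groups were fitted, as was that of HNRNPH1. The HNRNPH1 call was also lost without GSK-484 replicate 2 or 3 or untreated replicate 1 or 2.

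UNC0642 gave 19, 4 higher and 15 lower (16.3% of all genes, 8.71% higher and 7.54% lower), and with GC adjustment 2 (2.58%), both called in the first fit too (1.95%): SRSF9 (-0.17) and HNRNPA1P10 (0.32). The SRSF9 call was lost without replicate 2 or 3 of UNC0642 or of the untreated group, and that of HNRNPA1P10 without UNC0642 replicate 3. Against GSK-484, 1 member was higher with UNC0642 in either fit (4.57% of all genes, and 7.27% with GC adjustment). SNRNP70 was called higher than in untreated cells with each of the 6 compounds, all of which share the untreated libraries. With GC adjustment it was called with JQ-1 and GSK-591 but not with TP-472 (0.07), MS023 (-0.03), GSK-484 (0.01) or UNC0642 (0.01).

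Some members share reads with near-identical or overlapping genes, and their values are uncertain. HNRNPH2 overlaps the readthrough gene RPL36A-HNRNPH2. It held 7.74% ± 2.24 (SD, n = 3) of their summed reads in untreated libraries and 2.28 to 4.76% on average with the compounds, while the sum went from 96.4 CPM to between 82.7 and 94.4 CPM. HNRNPUL2-BSCL2, another readthrough gene, rose by 0.95 with JQ-1 and held 26.3% ± 0.949 of the reads it shares with HNRNPUL2 and BSCL2 in untreated cells and 37.9% ± 1.46 with JQ-1 (SD, n = 3). The pseudogene HNRNPA1P10 held 0.785% of the HNRNPA1, HNRNPA1L2 and HNRNPA1P10 reads in untreated cells and 0.932 to 1.13% with the compounds. HNRNPU-AS1 is antisense to HNRNPU, and no source used here gives the strand of the reads. Of the 75 members 26 had counts that were not whole numbers, which mark reads split between genes.

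Other splicing genes were counted from lists of complexes around these families. With JQ-1, U5, tri-snRNP and catalytic core genes were higher in 13 and lower in 7 of 25 tested, SMN and PRMT5 complex genes, which assemble the Sm ring, in 8 and 2 of 15, and SR protein kinases and SR-like genes in 7 and 2 of 13. U2 and branch site genes were higher in 7 and lower in 5 of 15, other RNA-binding splicing regulators in 7 and 12 of 30, type I methyltransferases in 2 and 1 of 5 and minor spliceosome genes in 2 and 1 of 6. Of all genes, 35.7% were higher and 37.6% lower. With GC adjustment, 14 U5, tri-snRNP and core genes were higher and 4 lower, and 11 SMN and PRMT5 complex genes higher and 1 lower. SR kinases and SR-like genes were then at 9 and 1, and U2 and branch site genes at 8 and 6. Other RNA-binding regulators turned to 14 and 12, type I methyltransferases went to 4 and 1, and minor spliceosome genes stayed at 2 and 1. Of all genes, 43.2% were then higher and 32.2% lower. U2AF2, which binds the polypyrimidine tract, rose by 0.91 and the SMN complex gene GEMIN8 by 1.37, while CWC22, which brings the exon junction complex to the spliceosome, fell by 0.79. With GSK-591, 8 of 15 U2 and branch site genes were higher and 0 lower, and 11 of 25 tri-snRNP genes were higher and 1 lower (5 and 9 higher with GC adjustment, none lower), beside 18.1% of all genes higher and 14.8% lower (7.68% and 4.71% with GC adjustment). Other RNA-binding regulators were higher in 8 and lower in 10 of 30, SMN and PRMT5 complex genes in 2 and 1 of 15, SR kinases and SR-like genes in 4 and 1 of 13, type I methyltransferases in 2 and 1 of 5 and minor spliceosome genes in 2 and 1 of 6. With GC adjustment these were 8 and 3 for the regulators, 2 and 0 for SMN and PRMT5 genes and 6 and 0 for SR genes. Type I methyltransferases were then at 1 and 1 and minor spliceosome genes at 2 and 1. With MS023, tri-snRNP genes were higher in 8 and lower in 3 (22% and 20.6% of all genes). They were 7 and 1 with TP-472 (17.3% and 14.5%), 6 and 0 with GSK-484 (11.4% and 7.66%) and 9 and 0 with UNC0642 (8.71% and 7.54%). With GC adjustment 7 were higher with MS023 and 6 with TP-472, beside 15.6% and 10.6% of all genes called. None was then called with GSK-484 or UNC0642, and none was lower with MS023 or TP-472.

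SART1, which recruits the tri-snRNP, was called higher with all 6 compounds, at 0.46 with GSK-591, 0.43 with MS023, 0.29 with TP-472, 0.25 with JQ-1, 0.24 with GSK-484 and 0.21 with UNC0642. With GC adjustment it was called with GSK-591 (0.27), MS023 (0.18) and JQ-1 (0.17), and not with TP-472 (0.09), GSK-484 (0.07) or UNC0642 (0.07). PRMT1, the main type I methyltransferase gene, rose by 0.31 with GSK-591 and 0.41 with MS023 (GC-adjusted 0.18 and 0.25), and by 0.38 with JQ-1 and 0.31 with TP-472 (GC-adjusted 0.41 and 0.19). It was also called with UNC0642 (0.16, not with GC adjustment, 0.07), a call lost without any 1 of the UNC0642 libraries or untreated replicate 1. It was not called with GSK-484 (0.14, adjusted p = 0.0526 by edgeR), but was without GSK-484 replicate 1 or untreated replicate 2 or 3. These comparisons share the untreated libraries.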

How the data were processed

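Libraries were made from poly-A selected RNA and sequenced on an Illumina instrument, per the series' design text. The authors deposited 1 table of unscaled expected counts for 26475 genes and 21 libraries. Alignment and counting used Bowtie2 2.1.0, RSEM 1.2.15 and the hg38 build, per the submitters' processing notes. Annotation, strand and read filters are not given in any source used here. RSEM splits reads between similar genes by estimate, which touches paralogs and readthrough genes.

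Expected counts were rounded and genes were kept by the filterByExpr function (edgeR 4.0.16, count of at least 10, total of at least 15), which left 15062. All libraries were scaled by TMM and fitted in 1 model by group, and comparisons used the two-sided quasi-likelihood test with Benjamini-Hochberg adjustment over all genes tested. Fold changes use a prior count of 0.125. In the second fit a loess trend of log2 CPM (prior count 2, span 0.3, 4 iterations) on the GC content of the longest GENCODE 29 coding transcript was removed from each library, for the 14119 genes with a value (93.7%), 66 members among them. Positions are those of GENCODE 29 on hg38. Promoters are from RefSeq (GRCh38.p14), 1 for each of 61 members matched by symbol, 22 of them without exonic bases. R 4.3.3, limma 3.58.1, DESeq2 1.42.0, Python 3.11.15, numpy 2.4.6, pandas 2.3.3 and matplotlib 3.10.9 were used.

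The rule for named genes took, per comparison, the 5 largest rises and 5 largest falls among called members that reached 3 CPM in the higher group and did not overlap, the most changed called member of each family, 6 genes of arginine-methylated proteins for GSK-591 and MS023, and the most changed called gene of each list of other splicing genes. All other genes given with values were chosen after their values were seen. Members and lists were chosen with earlier results of these data known.

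Replicate counts differed beyond sampling noise in all 21 pairs within groups (chi-square per degree of freedom 3.52 to 60.1), so each library was counted. Same-numbered libraries of compared groups had correlated deviations of -0.125 to 0.115 over 27 pairs, so the numbers were not taken as pairs. On simulated data for GSK-591 against untreated cells, 38% of genes changed 1.2-fold, 78% changed 1.5-fold, 90% changed 2-fold and 100% changed 3-fold were recovered, with 8 false calls over 14796 genes. The simulation gave all genes and libraries 1 common spread and no GC difference between groups. Its rates therefore need not hold for the real comparisons. The alternatives were DESeq2, RLE and total-count scaling, no filter, the replicate block, only the 2 groups compared, the GC trend removed (also with the block), GSK-484 as the reference, and leaving out each replicate in turn. Removal of the trend with the GC content of the longest transcript of any type was added after seeing the data.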

Additional observations from a re-analysis of the deposited data

How the results depend on the processing

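Of 179 called among 197 named pairs of gene and comparison, most kept their call under DESeq2 and RLE scaling. Losses of a call with the sign kept numbered 69 with GC adjustment and 72 with the replicate block as well. They numbered 35 with GSK-484 as the reference, 33 with only the 2 groups fitted and 151 over all fits without 1 replicate. Sign and call status were unchanged in 56, 163 and 1018 cases in these settings. The GSK-484 reference was applied only to JQ-1, TP-472 and UNC0642, and fits without 1 replicate count each pair once per library left out. Pairs whose sign turned, some of them called in the first fit, are counted apart. There were 12 with GC adjustment, 12 with the block as well, 8 with GSK-484 as the reference and 9 over all fits without 1 replicate. Counts of called members moved by over 1.5 times as follows, and the cause was not tested. GC adjustment gave 10 for TP-472, 12 for GSK-591, 16 for MS023, 3 for GSK-484 and 2 for UNC0642. With GC content of any transcript type these were 12, 13, 22, 2 and 5. The replicate block with GC adjustment gave 9, 12, 13, 2 and 3. The replicate block alone gave 5 for MS023 against GSK-484 and moved no other count by over 1.5 times. GSK-484 as the reference left 3 for TP-472 and 1 for UNC0642. DESeq2 gave 5 for GSK-591 against GSK-484. Fits of only the 2 groups gave 16 for GSK-591 and 1 for GSK-484 against untreated cells, 4 for MS023 against GSK-484 and 0 for GSK-591 against GSK-484 (edgeR, with 10 at an unadjusted p under 0.05).

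Without 1 replicate, counts were 48 to 53 for JQ-1, 16 to 24 for TP-472, 17 to 25 for GSK-591, 24 to 34 for MS023, 8 to 17 for GSK-484 and 6 to 16 for UNC0642, and 5 to 9 for GSK-591 against MS023, 2 to 5 for GSK-591 against GSK-484 and 4 to 14 for MS023 against GSK-484. Moves of over 1.5 times came for TP-472 without untreated replicate 1 (16), for GSK-591 without GSK-591 replicate 1 (17) or 2 (18) or untreated replicate 1 (18), for MS023 without its replicate 2 (24), for GSK-484 without its replicate 2 (11) or untreated replicate 1 (8), and for UNC0642 without its replicate 2 (9) or 3 (8) or untreated replicate 3 (6). In the direct contrasts they came without MS023 replicate 1 (5) for GSK-591 against MS023, without GSK-484 replicate 1 (5) for GSK-591 against GSK-484, and for MS023 against GSK-484 without MS023 replicate 1 (5) or 2 (4) or GSK-484 replicate 1 (14) or 3 (4).

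Most log2 fold changes that changed sign were near 0 in the new setting, but not all had been so in the first fit. Some were calls there, among them HNRNPA2B1 with JQ-1, LSM4 with GSK-591, SNRNP70 and LSM5 with MS023, and HNRNPH2 with TP-472. Values given here are those of the new setting. With JQ-1 and library totals, SNRPB was at -0.12, SNRNP200 at -0.017, SNRNP48 at -0.030, LSM4 at -0.019, LSM10 at -0.12, LSM12 at -0.0014 and LSM14B at -0.069. Against GSK-484 the JQ-1 values were 0.99 for HNRNPH2, -0.17 for SNRPB and -0.035 for LSM10. With TP-472, HNRNPH2 was at 0.049 and HNRNPA1P10 at -0.024 against GSK-484, and with UNC0642, SNRNP70 was at -0.049, HNRNPH2 at 0.72 and SART1 at -0.036. SNRPD3 with GSK-591 was at -0.046 with library totals and -0.0040 without the filter, and HNRNPA1 with MS023 at -0.022 with library totals. For the next genes the values are GC-adjusted, then with the replicate block, then with any transcript type. HNRNPA2B1 with JQ-1 had 0.072, 0.072 and 0.058. With GSK-591, SNRPD1 had 0.040, 0.038 and 0.032, SNRPD3 -0.024, -0.024 and -0.029, LSM4 -0.013, -0.014 and -0.018, and HNRNPA1 0.070, 0.070 and 0.068. SRSF10 had 0.035 and 0.034 in the first 2, and HNRNPH1 0.094 in the last, where it had 0.022 with TP-472 and 0.046 with GSK-484. With MS023, SNRNP70 had -0.032, -0.032 and -0.031, LSM5 0.017, 0.017 and 0.0020, SNRPD1 0.0065, 0.0071 and 0.00061, SRSF1 0.068, 0.068 and 0.064, and SRSF10 0.021 and 0.022 in the first 2. SNRPB between GSK-591 and MS023 had 0.0010, 0.00038 and 0.00053. Without 1 replicate, signs turned within -0.022 (untreated replicate 1) to 0.085 for SNRPB and -0.032 (untreated replicate 1) to 0.065 for LSM10 with JQ-1. With GSK-591 the ranges were -0.017 (untreated replicate 1) to 0.044 for SNRPD3 and -0.047 to 0.015 (GSK-591 replicate 1) for HNRNPA1. They were -0.049 to 0.013 (untreated replicate 3) for SNRPD3 with MS023, and -0.076 to 0.012 (MS023 replicate 2) for SNRPB between GSK-591 and MS023.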
